A study of Mus musculus with 37 samples.

Results

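In all, 10 genes of hepatic stellate cells and of scar matrix were followed through every liver library of the series: Lrat, Des, Pdgfrb, Acta2, Col1a1, Col1a2, Col3a1, Timp1, Lox and Tgfb1. They were taken by gene symbol from the 24421 genes counted in each library, and all 10 symbols were found in all 37 libraries. Lrat and Des were set as the genes of the quiescent stellate cell against the other 8. Each library came from the liver of 1 C57BL/6 mouse at 2 months of age, with genotype WT, STAT5B-Y665F or STAT5B-Y665H. Males numbered 6 of WT, 9 of Y665F and 4 of Y665H, and each genotype had 6 females. Both mutants carry a point mutation that replaces the same tyrosine of STAT5B, by phenylalanine in Y665F and by histidine in Y665H, in the whole animal, and no treatment is named for any group. How many alleles carried the change is not given in the sources used here, and no other allele is named. The libraries hold RNA of whole liver, so fewer cells of a type and less RNA per cell cannot be told apart in any value below.

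STAT5B is the transcription factor that carries the growth hormone signal in hepatocytes. Stellate cells lie between hepatocytes and the sinusoidal endothelium and store vitamin A as retinyl esters. When they are activated they lose this store, take on a contractile phenotype and secrete fibrillar collagen, and transforming growth factor beta and platelet-derived growth factor are the classical signals for that change. In a healthy young liver the fibrillar collagens are made at a low level, mainly by stellate cells and portal fibroblasts.

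Male and female libraries differed in depth without overlap, with 49141951 to 73937726 counts in genes in males and 24388434 to 40864173 in females, so depth and sex cannot be told apart. The items counted in no gene row for any reason (unassigned, ambiguous or not unique) were 36.7% to 49.9% of all items in males and 32.4% to 39.2% in females. The share of items lying in no annotated gene averaged 18.8% in WT, 15.8% in Y665F and 14.3% in Y665H males, and 11.6%, 13.9% and 9.59% in the same order in females. Library kits of different makers are named in the labels without saying which libraries used which. Fibrinogen beta (Fgb) averaged 3316 CPM (counts scaled to the library total, the unit of all levels here) over all libraries, as belongs to liver. All 18 genes of a stellate cell marker list were present and passed the filter on low counts. In the Y665H females, replicate 2 had the lowest and replicates 1 and 4 the highest collagen values of the whole female set, and in the WT males replicate 3 was highest in Des, Acta2, Lox and the 3 collagens. Among the Y665F males, replicate 2 had the highest summed levels of Kupffer cell, neutrophil, platelet and acute phase genes and the lowest values of Col1a1, Col1a2 and Col3a1. Its acute phase sum was 19662 CPM beside 9969 to 11684 CPM in the other 8. The same library had the fewest counts in genes of the Y665F males, 58718870. Its share in no annotated gene was 19.9%, beside 13.9% to 16.8% in the other 8. Stat5b itself is not deleted by a point mutation, so its level does not check the labels. Its mean lay between 82.2 and 108 CPM in the 6 groups, and it was higher in Y665F than in WT males by a log2 fold change of 0.17 (edgeR adjusted p = 0.037) and lower in Y665H than in Y665F males by -0.25 (edgeR adjusted p = 0.0103).

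The gene starts of the vitamin A gene Lrat, which is high at rest, and of 3 genes that rose in Y665F males are shown to compare their proximal sequence. They are RefSeq windows on GRCm38.p6, 250 bases before to 50 after the gene start, read on the gene's strand, and 7 of the 10 members had an entry. Lrat lies on the minus strand at chr3:82903925-82904224. Col1a2 lies on the plus strand at chr6:4505368-4505667, Col3a1 on the plus strand at chr1:45311288-45311587, and Tgfb1 on the plus strand at chr7:25686752-25687051. Capitals mark a CCAAT box (CCAAT), a GC box (GGGCGG) or a TATA box (TATAAA), on either strand.
Lrat: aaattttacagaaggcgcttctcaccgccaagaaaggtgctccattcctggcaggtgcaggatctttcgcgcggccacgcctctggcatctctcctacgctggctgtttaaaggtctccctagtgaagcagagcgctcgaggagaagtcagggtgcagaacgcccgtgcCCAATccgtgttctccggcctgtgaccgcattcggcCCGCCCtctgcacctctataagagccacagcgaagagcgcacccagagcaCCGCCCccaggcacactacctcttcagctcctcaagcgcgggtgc
Col1a2: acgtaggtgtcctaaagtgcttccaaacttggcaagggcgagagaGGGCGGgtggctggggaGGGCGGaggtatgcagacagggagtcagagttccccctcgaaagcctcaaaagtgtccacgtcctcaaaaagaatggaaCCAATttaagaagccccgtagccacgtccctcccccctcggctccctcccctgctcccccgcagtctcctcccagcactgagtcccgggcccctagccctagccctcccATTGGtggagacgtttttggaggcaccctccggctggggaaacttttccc
Col3a1: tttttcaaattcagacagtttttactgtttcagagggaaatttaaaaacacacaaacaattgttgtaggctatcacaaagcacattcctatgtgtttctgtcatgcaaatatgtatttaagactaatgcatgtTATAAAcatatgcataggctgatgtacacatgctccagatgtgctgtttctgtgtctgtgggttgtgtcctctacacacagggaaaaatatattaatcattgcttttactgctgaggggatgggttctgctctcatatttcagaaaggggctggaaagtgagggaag
Tgfb1: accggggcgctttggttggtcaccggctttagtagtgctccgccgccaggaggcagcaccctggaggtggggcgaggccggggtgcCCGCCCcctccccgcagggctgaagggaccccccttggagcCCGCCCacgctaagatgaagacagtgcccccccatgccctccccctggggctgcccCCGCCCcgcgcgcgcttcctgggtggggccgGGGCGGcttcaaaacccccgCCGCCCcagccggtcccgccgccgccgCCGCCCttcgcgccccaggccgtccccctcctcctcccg
Tgfb1 has 6 GC boxes and none of the other motifs. Col1a2 has 2 CCAAT boxes and 2 GC boxes, Lrat has 1 CCAAT box and 2 GC boxes, and Col3a1 has a single TATA box. Of 32851 promoter windows of this length, 37.4% hold a CCAAT box, 35.7% a GC box and 13.6% a TATA box. The letters TTCNNNGAA, the core of the STAT motif, are in 8.3% of the windows and in 0 of the 7 members' windows. A match is a description of letters, and its absence says only that these letters are not in these windows.

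Levels between genes were compared per kilobase of merged exon. In WT livers Col3a1 and Lrat stood highest, at 4.96 ± 1.08 and 6.01 ± 0.36 CPM per kilobase in males and at 7.73 ± 0.75 and 6.00 ± 1.18 in females (SD, n = 6 each). Lox and Timp1 stood lowest, at 0.0880 ± 0.022 and 0.0457 ± 0.034 CPM per kilobase in WT males. The spread of those 2 over libraries overlapped. In between, in WT males, lay Pdgfrb at 2.58 ± 0.10, Col1a1 at 2.36 ± 0.85, Col1a2 at 1.83 ± 0.43, Tgfb1 at 1.73 ± 0.088, Des at 1.31 ± 0.13 and Acta2 at 1.09 ± 0.78 CPM per kilobase. Neighbours in that order, from Pdgfrb down to Acta2, lay within 1 SD of each other except for Tgfb1 and Des.

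**Figure D1:**
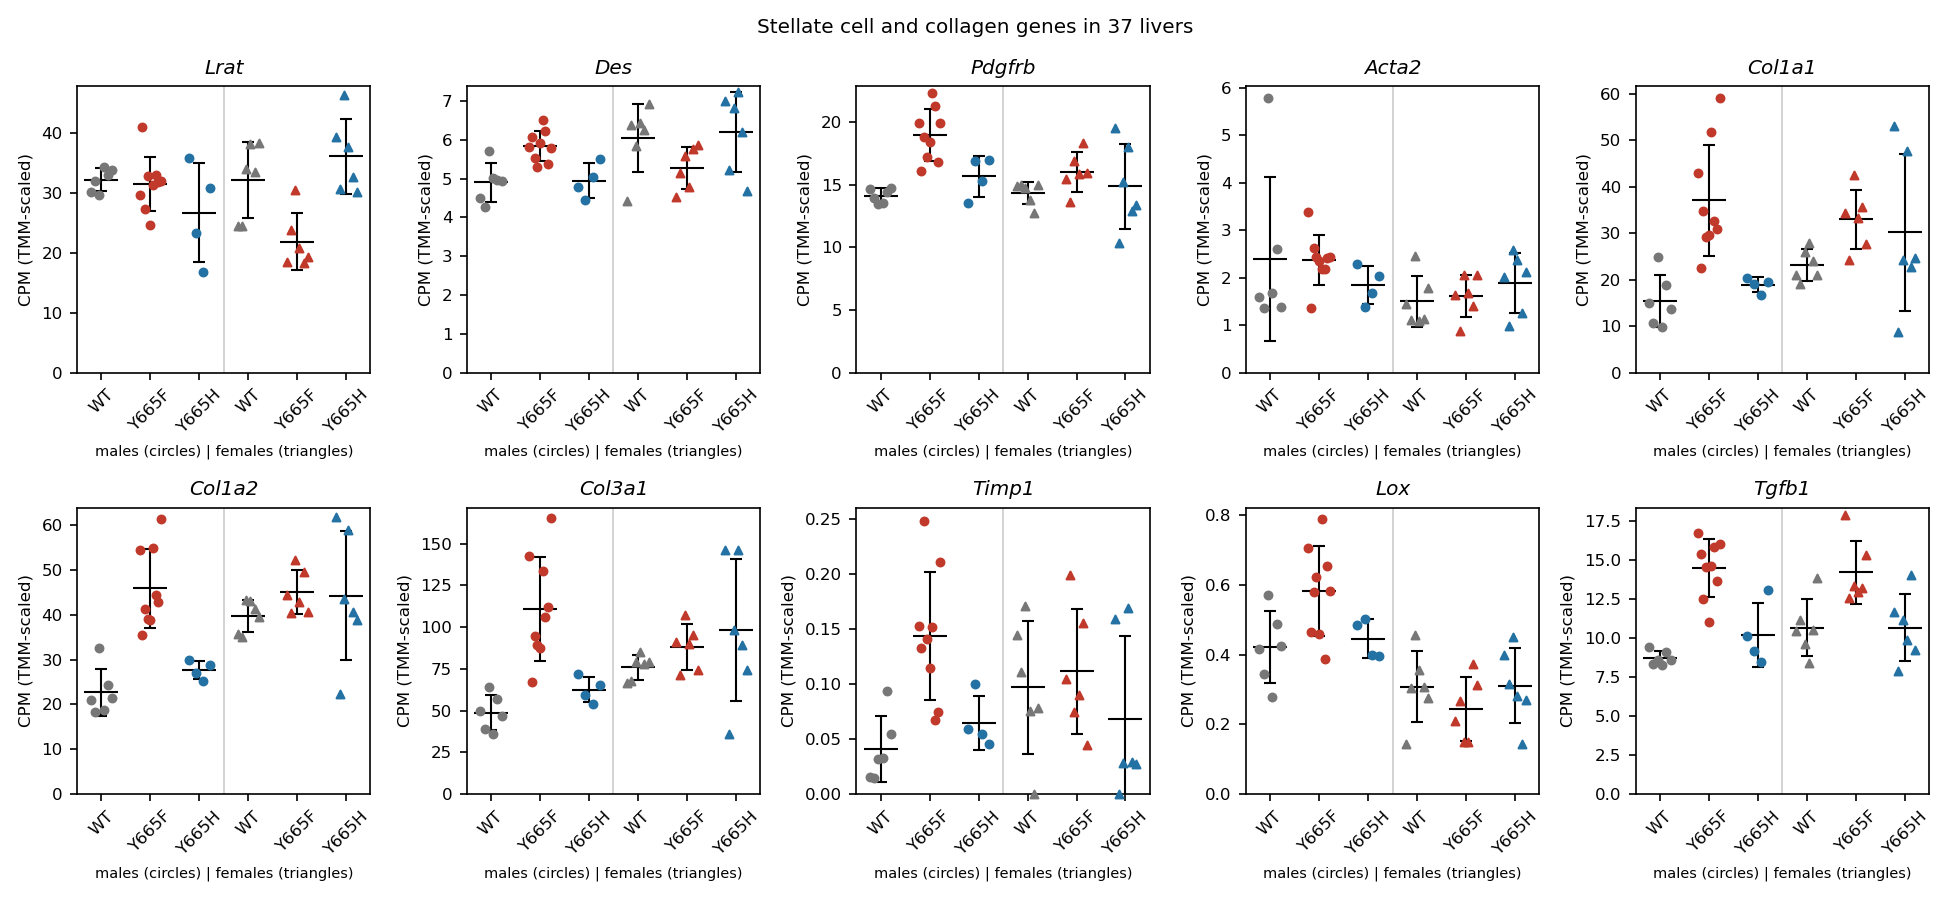
CPM of each of the 10 members (vertical axes, linear, each from 0) in every library, by genotype and sex (horizontal axes), with circles for males, triangles for females and bars for mean and SD. The Y665F males stand above the WT males in Col1a2, Col3a1, Pdgfrb and Tgfb1 without overlap, while 1 WT male library stands apart in Acta2.

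Col1a1, Col1a2 and Col3a1 rose about 2-fold in Y665F males. Of the 9 members that passed the filter on low counts, 7 were higher in Y665F than in WT males and none was lower, by edgeR's quasi-likelihood test with Benjamini-Hochberg adjustment over 15152 genes and a call at an adjusted p under 0.05. Among all tested genes 52.5% were called in this comparison, 27.2% as higher. The members' median log2 fold change was 0.47, beside -0.01 for all tested genes. For 4 members every Y665F male library stood above every WT male library, which held for 14.2% of all tested genes.

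Col3a1, the chain of type III collagen, which forms the fine reticular fibres of the liver, had 36.0 to 63.9 CPM in WT males (median 48.2). In Y665F males it had 66.8, 106 and 165 CPM as the lowest, median and highest values. The 2 groups did not overlap, the lowest Y665F library being replicate 2. The log2 fold change was 1.19 (SE 0.20, edgeR adjusted p = 5.98e-06), or 2.27-fold.

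Col1a1 and Col1a2 encode the 2 chains of type I collagen, the main collagen of scars. Col1a1 had 9.90, 14.4 and 24.8 CPM as lowest, median and highest in WT males and 22.5, 32.7 and 59.2 CPM in Y665F males. The groups touched only through WT replicate 3 and Y665F replicate 2, and 9 of 9 Y665F libraries lay above the WT mean. The log2 fold change of Col1a1 was 1.26 (SE 0.25, edgeR adjusted p = 5.64e-05). Col1a2 had 18.3, 21.2 and 32.6 CPM in WT and 35.6, 42.9 and 61.4 CPM in Y665F males, without overlap, with a log2 fold change of 1.02 (SE 0.15, edgeR adjusted p = 4.95e-07).

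Tgfb1, the ligand that drives collagen production in activated stellate cells and is made by many cell types, also rose in Y665F males. It had 8.26, 8.57 and 9.40 CPM as lowest, median and highest in WT males and 11.0, 14.6 and 16.7 CPM in Y665F males. The groups did not overlap, and the log2 fold change was 0.74 (SE 0.11, edgeR adjusted p = 6.67e-07), or 1.66-fold. Pdgfrb, the receptor through which platelet-derived growth factor makes stellate cells divide, had 13.5 to 14.7 CPM in WT males and 16.0 to 22.3 CPM in Y665F males. It rose by a log2 fold change of 0.43 (SE 0.09, edgeR adjusted p = 1.38e-04), a smaller value than those of the 3 collagens.

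The 2 quiescent genes behaved differently from each other in Y665F males. Lrat, the enzyme that esterifies retinol for storage, had 29.6 to 34.3 CPM in WT males and 24.5 to 41.0 CPM in Y665F males. Its log2 fold change was -0.03, with a 95% interval of -0.29 to 0.23 (edgeR adjusted p = 0.863). Des, the intermediate filament desmin of stellate and muscle cells, rose by a log2 fold change of 0.25 (SE 0.09, edgeR adjusted p = 0.0145), from 4.26 to 5.72 CPM in WT males to 5.31 to 6.51 CPM in Y665F males. The Des groups overlapped through WT replicate 3, and the call was lost without WT male replicate 1 or 2 (adjusted p up to 0.0686) and with the share in no annotated gene as a covariate. An antisense transcript, Gm15179, overlaps 5.86% of the Des exons, and whether the counting used strand is not given in the sources used here.

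Acta2, the smooth muscle actin that marks contractile myofibroblasts, was not called in Y665F males. Its WT male values were 1.58, 1.35, 5.78, 1.67, 2.59 and 1.37 CPM for replicates 1 to 6, and the Y665F males had 1.36, 2.41 and 3.38 CPM as lowest, median and highest. WT replicate 3 stood above every other library of the series. The log2 fold change was -0.01 (SE 0.25, edgeR adjusted p = 0.988), and it was 0.46 (adjusted p = 0.0641) without that library. Lox, the enzyme that crosslinks collagen, was low throughout, with 0.279 to 0.572 CPM in WT males and 0.388 to 0.789 CPM in Y665F males, which overlapped. Its log2 fold change of 0.47 (SE 0.19, edgeR adjusted p = 0.0328) no longer passed the test without any 1 of 6 of the 15 libraries (WT male replicates 1, 2, 4 and 6 and Y665F male replicates 1 and 6, adjusted p up to 0.116) or with the covariate (0.212).

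Timp1, an inhibitor of matrix metalloproteases, had too few counts for the filter, with 0 to 18 counts per library. Its counts summed to 15 over the 6 WT males, 91 over the 9 Y665F males and 17 over the 4 Y665H males, and to 19, 20 and 15 over the WT, Y665F and Y665H females. In CPM the WT males had 0.0150 to 0.0939, the Y665F males 0.0670 to 0.248 and the WT females 0 to 0.171. A fit without the filter gave a log2 fold change of 1.82 (SE 0.43, edgeR adjusted p = 7.96e-04) for Y665F against WT males, in which 9 of 9 Y665F libraries lay above the WT mean while the groups overlapped. The other Timp1 contrasts against WT in that fit were not called, with log2 fold changes of 0.70 in Y665H males (SE 0.58), 0.25 in Y665F females (SE 0.54) and -0.42 in Y665H females (SE 0.57) and edgeR adjusted p-values from 0.543 to 0.803.

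**Figure D2:**
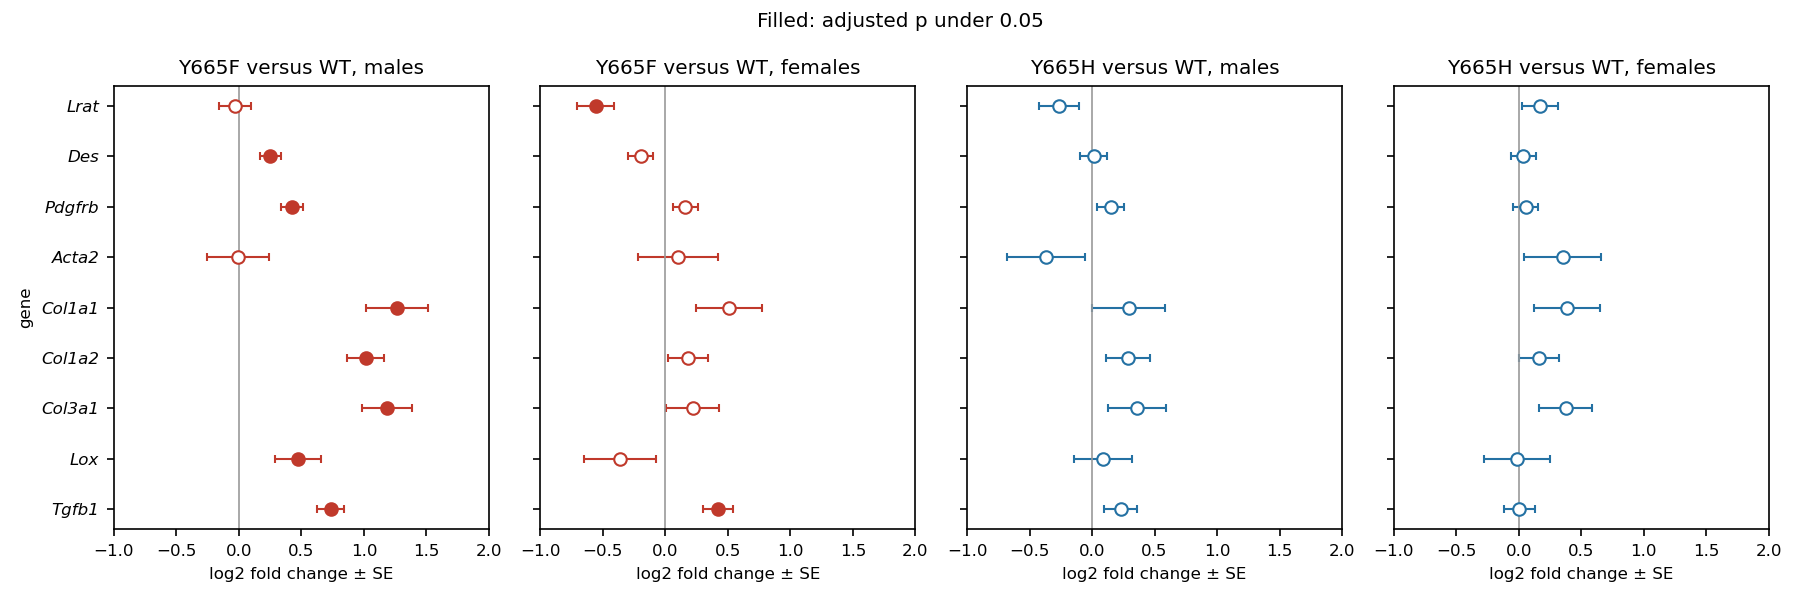
log2 fold change with SE (horizontal axes) of the 9 tested members (vertical axes) for each mutant against WT in each sex, with filled circles for an edgeR adjusted p under 0.05. Filled circles are 7 of 9 in Y665F males, Lrat and Tgfb1 in Y665F females, and none in Y665H of either sex.

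In Y665F females the storage gene fell and the collagens stayed short of the threshold. Among the 9 tested members, 2 were called against WT females, Lrat as lower and Tgfb1 as higher, beside 41.0% of all tested genes (17.8% higher and 23.3% lower). Lrat had 24.4, 24.4, 33.9, 38.1, 33.4 and 38.4 CPM in WT female replicates 1 to 6 and 18.4, 23.8, 30.5, 20.7, 18.2 and 19.4 CPM in the Y665F females. All but replicate 3 of the Y665F females lay below every WT female. The log2 fold change of Lrat was -0.56 (SE 0.15, edgeR adjusted p = 0.00265), or 0.680-fold.

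Tgfb1 had 8.38, 10.5 and 13.8 CPM as lowest, median and highest in WT females and 12.5, 13.3 and 17.9 CPM in Y665F females. The groups overlapped through WT replicate 6, and the log2 fold change was 0.42 (SE 0.12, edgeR adjusted p = 0.00595). Of the collagens, Col1a1 had 19.1 to 27.8 CPM in WT and 24.3 to 42.4 CPM in Y665F females, a log2 fold change of 0.51 with a 95% interval of -0.01 to 1.03 (edgeR adjusted p = 0.123). Col1a2 had a log2 fold change of 0.18 (95% interval -0.13 to 0.49) and Col3a1 of 0.22 (-0.20 to 0.63). Both intervals lie below the male value of the same gene. When only the WT and Y665F females were fitted, 6 members were called, Col1a1, Col1a2, Col3a1 and Pdgfrb being the added ones (edgeR adjusted p = 0.0023 for Col1a1 and 0.0338 to 0.0449 for the other 3). That fit called 5652 of 13773 genes, and Lox did not pass its filter. In the main fit Des, Acta2 and Lox were not called, with log2 fold changes of -0.20, 0.10 and -0.36.

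The Y665F effect differed between the sexes for 4 members in a test of the interaction, in which 27.7% of all tested genes were called and 16.1% were called as more positive in males. Col3a1 differed by 0.97 on the log2 scale (SE 0.29, edgeR adjusted p = 0.0110) and Col1a2 by 0.83 (SE 0.22, edgeR adjusted p = 0.00372). Des differed by 0.45 (SE 0.13, edgeR adjusted p = 0.0106) and Lrat by 0.53 (SE 0.20, edgeR adjusted p = 0.0429). Col1a1, with a difference of 0.75 (SE 0.36), did not pass (adjusted p = 0.113), nor did Tgfb1 with 0.32 (adjusted p = 0.144) or Lox with 0.84 (adjusted p = 0.0637). With the share in no annotated gene as a covariate none of the 4 was called, and the values were 0.64 for Col3a1, 0.63 for Col1a2, 0.35 for Des and 0.55 for Lrat. In that fit 2602 of 15152 genes were called. The share did not overlap between WT males and WT females, so share and sex cannot be told apart in WT. Lrat lost its call in 6 of 9 alternative fits (adjusted p up to 0.11) and in 19 of 27 fits that left out a single library, with adjusted p-values of 0.0126 to 0.0878.

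The base from which the sexes started also differed. In WT livers 4 members were lower in males than in females and none was higher, with 49.7% of all tested genes called and 26.8% called as lower in males. Col1a2 had 18.3 to 32.6 CPM in WT males and 35.1 to 43.3 CPM in WT females, a log2 fold change of -0.81 (SE 0.16, edgeR adjusted p = 8.26e-05). Col3a1 had 36.0 to 63.9 CPM in males and 66.3 to 85.1 CPM in females, a log2 fold change of -0.64 (SE 0.21, edgeR adjusted p = 0.0124). For these 2 genes no male library reached a female one, which held for 15.7% of all tested genes. Des was lower in males by a log2 fold change of -0.30 (edgeR adjusted p = 0.00997) and Tgfb1 by -0.29 (edgeR adjusted p = 0.0455), the latter called in only 2 of 8 alternative fits and lost in 10 of 12 that left out a single library. None of the 4 was called with the share in no annotated gene as a covariate, a fit in which 4379 of 15152 genes were called. The log2 fold changes were then -0.54 for Col1a2 (edgeR adjusted p = 0.0842), -0.22 for Col3a1 (0.64), -0.17 for Des and -0.18 for Tgfb1. That share was 17.3% to 19.8% in WT males and 9.59% to 14.7% in WT females, so share and sex cannot be told apart there. The Y665F male means of Col1a2 and Col3a1, 45.9 ± 8.88 and 111 ± 31.0 CPM, stood above the WT female means of 39.7 ± 3.54 and 75.8 ± 7.38 CPM, a contrast that was not tested. Markers of some other lists were also lower in WT males than in WT females. They were 12 of 14 of Kupffer cells and macrophages (median -0.82), 12 of 18 of stellate cells (median -0.36) and 5 of 9 acute phase genes, with none higher. Other lists did not go down: 3 of 10 endothelial markers (median 0.31) and 1 of 6 cholangiocyte markers were higher and none lower. None of 8 smooth muscle markers was called. The part of these cells in the collagen values was not tested.

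In Y665H livers none of the 9 tested members was called against WT, in males or in females, where 8.40% and 7.50% of all tested genes were called. By edgeR, 0 members had an unadjusted p under 0.05 in either sex, and DESeq2 and limma-voom called 0 as well. All 4 Y665H male libraries lay above the WT male mean in each of the 3 collagens. Col3a1 had 71.6, 59.0, 54.0 and 65.5 CPM in Y665H male replicates 1 to 4, 2 of them above the WT range of 36.0 to 63.9 CPM. Its log2 fold change was 0.36, with a 95% interval of -0.10 to 0.82, so the value of 1.19 seen in Y665F males lies outside it. The intervals of Col1a1 (-0.28 to 0.87) and Col1a2 (-0.05 to 0.63) in Y665H males likewise end below the Y665F male values. Lrat had 35.8, 23.3, 16.9 and 30.8 CPM in the Y665H males, the widest relative spread of that gene in any group.

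Y665H females varied more than they differed from WT. Col1a1 had 53.2, 8.70, 24.3, 47.7, 22.6 and 24.6 CPM in replicates 1 to 6, a 30.2 ± 16.8 CPM mean and SD beside 23.1 ± 3.36 CPM in WT females. Replicates 1 and 4 lay above and replicate 2 below all WT females. Col3a1 followed the same order at its ends, with 146 CPM in both replicates 1 and 4 and 36.2 CPM in replicate 2. Replicate 2 also had the lowest sums of all females in markers of Kupffer cells and macrophages (205 CPM) and endothelium (306 CPM). The same was so for smooth muscle (16.3 CPM), portal fibroblasts and mesothelium (12.7 CPM) and platelets (5.62 CPM), but not for cholangiocyte, neutrophil or acute phase genes. Their part in the collagen values was not tested. No member was called for a difference of the Y665H effect between the sexes, a contrast in which 5.24% of all tested genes were called.

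Set directly against each other in males, the substitutions separated 6 members, all lower in Y665H than in Y665F, among 41.7% of all tested genes called and 21.2% called as lower. The log2 fold changes were -0.97 for Col1a1, -0.83 for Col3a1, -0.73 for Col1a2, -0.50 for Tgfb1, -0.28 for Pdgfrb and -0.24 for Des, with edgeR adjusted p-values from 6.73e-04 for Col1a2 to 0.0499 for Des. Col1a1 and Col1a2 did not overlap between the 2 groups of males, as was so for 11.8% of all tested genes. Des was called in 6 of 9 alternative fits and lost its call in 9 of 13 fits that left out a single library (adjusted p up to 0.199). Pdgfrb lost its call without Y665F male replicate 6 or Y665H male replicate 1 or 3 (adjusted p up to 0.153). In females 3 members were called between the substitutions, with 56.5% of all tested genes called, 30.5% as higher in Y665H and 26.0% as lower. Lrat was higher in Y665H by 0.73 on the log2 scale (SE 0.15, edgeR adjusted p = 8.48e-05), with 30.1 to 46.3 CPM beside 18.2 to 30.5 CPM in Y665F. Tgfb1 was lower in Y665H by -0.41 (SE 0.12, edgeR adjusted p = 0.00428), and the call of Des (0.24, adjusted p = 0.0439) was lost in all 9 alternative fits. Markers of other cells were lower in Y665H than in Y665F too, namely 10 of 14 of Kupffer cells and macrophages (median -0.64) and 5 of 6 of platelets (median -1.53) in males, and 11 of 14 (median -0.56) and 6 of 6 (median -1.26) in females. Their part in the members' values was not tested.

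The balance of collagen against quiescent genes was described for each library as the mean log2 CPM of Col1a1, Col1a2 and Col3a1 minus that of Lrat and Des, relative to the WT mean of the same sex. In Y665F males it was 1.05 ± 0.40 (SD, n = 9), from 0.26 in replicate 2 to 1.64 in replicate 9, against an SD of 0.35 in WT males. The 2 groups of males overlapped, the highest WT male being at 0.52. In Y665F females it was 0.67 ± 0.24 (SD, n = 6), from 0.32 to 0.93, and every one of these lay above every WT female (highest 0.25). In Y665H it was 0.51 ± 0.13 in males, from 0.35 to 0.62, and 0.06 ± 0.60 in females, from -0.97 to 0.66. The called parts of this balance were the 3 collagens and Des, all higher, in Y665F males and Lrat, lower, in Y665F females. With all 8 other members in place of the collagens the means were 0.69, 0.37, 0.56 and -0.05 in Y665F males, Y665H males, Y665F females and Y665H females.

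**Figure D3:**
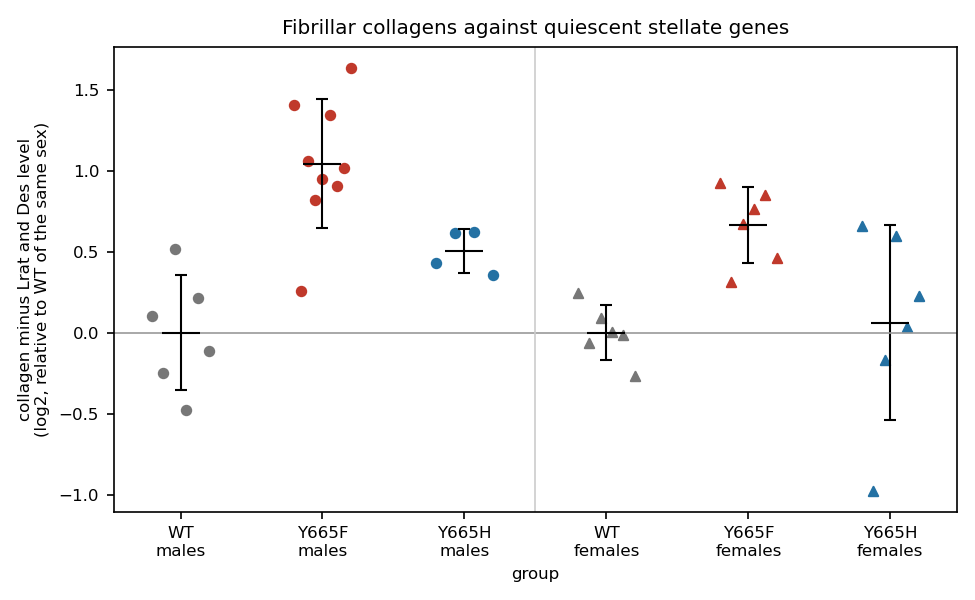
Mean log2 CPM of 3 fibrillar collagen genes minus that of Lrat and Des, relative to WT of the same sex (vertical axis), for each library by group (horizontal axis), with bars for mean and SD. Y665F libraries of both sexes and all Y665H male libraries lie above 0, while Y665H females spread from -0.97 to 0.66.

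The members also differed in how they varied among the libraries of a group. After centring on the group means, Col1a1 followed Col1a2 (Pearson r = 0.97) and Col3a1 (0.96) over the 37 libraries. Pdgfrb ran with Col1a1 at 0.73, Acta2 with Col1a1 at 0.60, and Pdgfrb with Acta2 at 0.33. Lrat ran with Des at 0.38 and with Col1a1 at only 0.17, and Tgfb1 with Col1a1 at 0.25. Over 12191 genes of at least 1 CPM, the genes most like Col1a1 beside these 2 were Col6a3 (0.92), Fbn1 (0.87) and Htra1 (0.86). Those most like Lrat were Cyp26b1 (0.79), a retinoic acid hydroxylase, Dennd2a (0.75), Rarb (0.75), a retinoic acid receptor, 2900008C10Rik (0.69) and Nab1 (0.64). For Timp1 they were Ccdc3 and Cd63 (0.64 each), Rras and Ralgds (0.61 each) and Synpo (0.60), and at 0 to 18 counts these are weak descriptions. All such values share the library and its depth and are given with no p.

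The wider stellate cell list split by sex in Y665F livers. The counts of this and the other lists stand beside 27.2% of all tested genes called as higher in Y665F males, 17.8% as higher and 23.3% as lower in Y665F females, and 8.40% and 7.50% called in either direction in Y665H males and females. Of 18 markers, 13 were higher and none lower in Y665F males (median log2 fold change 0.36, beside -0.01 for all tested genes), and in Y665F females none was higher and 2, Lrat and Vipr1, were lower (median -0.07). The effect was more positive in males for 14 of the 18 in the test of the difference, and for 11 with DESeq2 size factors, beside 16.1% of all tested genes. In the same test it was more positive in males for 12 of 14 Kupffer cell and macrophage markers (median 0.86) and 4 of 9 acute phase genes. Vipr1, a peptide hormone receptor, fell in Y665F females by 0.30 on the log2 scale (edgeR adjusted p = 6.99e-04). In Y665H, 1 marker was called in males, Cygb, the globin of stellate cells (0.30, edgeR adjusted p = 0.0399), and none in females.

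Collagens as a family moved in both directions. Of 19 collagen genes, 13 rose and 2 fell in Y665F males (median 0.65), and 6 rose and 2 fell in Y665F females (median 0.22). In Y665H 2 rose in males (Col6a1 by 0.59 and Col4a2 by 0.48) and 1 in females. Col15a1, a basement membrane collagen, rose in Y665F males by a log2 fold change of 1.60 (SE 0.24, edgeR adjusted p = 7.62e-07), from 8.51 to 11.5 CPM in WT to 13.6 to 39.9 CPM. Col27a1, a fibrillar collagen known from cartilage, fell from 56.2 ± 5.98 to 10.4 ± 1.77 CPM in males, a log2 fold change of -2.44 (SE 0.19, edgeR adjusted p = 5.06e-13), and by -1.20 in females (SE 0.23, edgeR adjusted p = 5.52e-05). Col5a3, a chain of type V collagen, had 62.9 ± 11.9 CPM in WT males and 7.92 ± 0.757 CPM in WT females. In Y665F it fell in males to 25.6 ± 6.25 CPM and rose in females to 20.2 ± 4.46 CPM, with no overlap with WT in either sex. Its effect differed between the sexes by -2.65 on the log2 scale (SE 0.23, edgeR adjusted p = 4.76e-11). In Y665H females Col5a3 rose by 0.58 (edgeR adjusted p = 0.0379).

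**Figure D4:**
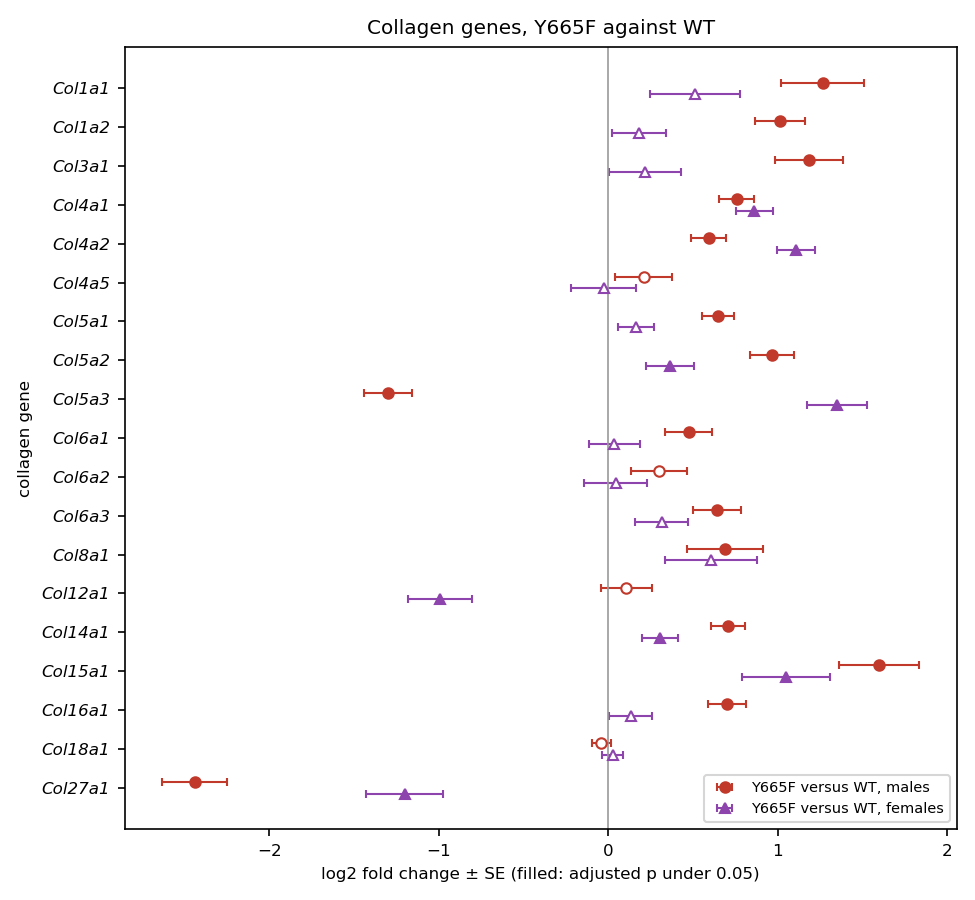
log2 fold change with SE (horizontal axis) of 19 collagen genes (vertical axis) for Y665F against WT, with circles for males, triangles for females and filled symbols for an edgeR adjusted p under 0.05. Most filled circles lie above 0, while Col27a1 is lower in both sexes and Col5a3 is lower in males and higher in females.

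Enzymes and helpers that fold, modify and crosslink collagen were mostly higher in Y665F males. Of 20, 12 rose and 2 fell in Y665F males (median 0.37), and 1 rose and 3 fell in Y665F females (median -0.01 with the trimmed-mean scaling and 0.01 with DESeq2 size factors). In Y665H, 1 rose in males (Plod1, 0.23) and 1 fell in females (Bmp1, -0.28). Loxl4, a relative of Lox, had 4.41 to 5.52 CPM in WT males and 11.8 to 39.1 CPM in Y665F males, a log2 fold change of 2.29 (SE 0.20, edgeR adjusted p = 1.07e-11). It was 0.22 in Y665F females (adjusted p = 0.467), and the effects differed by 2.07 (edgeR adjusted p = 2.56e-06). P4ha2, a collagen prolyl hydroxylase subunit, fell by 1.20 in males and by 1.07 in females on the log2 scale (edgeR adjusted p = 3.92e-08 and 1.43e-05). Ppib, a folding helper of collagen, rose in Y665F females by 0.27.

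Other matrix genes numbered 20, of which 15 rose and 3 fell in Y665F males (median 0.45) and 2 rose and 1 fell in Y665F females. Thbs1, thrombospondin 1, which can activate latent transforming growth factor beta, rose in both sexes, from 1.52 to 3.53 CPM to 6.54 to 12.7 CPM in males (2.04, SE 0.25, edgeR adjusted p = 2.17e-08) and from 2.70 to 3.58 CPM to 6.39 to 12.4 CPM in females (1.47, SE 0.28, edgeR adjusted p = 5.46e-05). Fmod, the collagen-binding fibromodulin, fell in Y665F males by 1.14 on the log2 scale. Fn1, fibronectin, fell in Y665F females by 0.23. Y665H males had 3 of these genes higher and none lower, among them Postn, periostin (0.84, edgeR adjusted p = 0.0235), and Fn1 (0.31), and Y665H females had 1, Tnc, tenascin C (0.69, edgeR adjusted p = 0.0365).

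Of 15 matrix proteases and inhibitors, 12 were tested, of which 9 rose and 1 fell in Y665F males (median 0.50) and 4 rose and 3 fell in Y665F females. Mmp14, a membrane-bound collagenase, rose from 23.9 ± 2.55 to 65.7 ± 6.55 CPM in males (1.46, SE 0.07, edgeR adjusted p = 2.23e-18) and from 39.7 ± 3.16 to 61.3 ± 6.94 CPM in females (0.62, edgeR adjusted p = 3.16e-08). Mmp14 was 0.33 higher in Y665H males (edgeR adjusted p = 0.0138). Reck, a membrane inhibitor of such proteases, fell by 0.40 in Y665F and by 0.80 in Y665H males on the log2 scale. Mmp9, a gelatinase, fell in Y665F females by 0.98 (edgeR adjusted p = 0.0155) from a mean of 1.11 CPM. In Y665H 2 of the list rose and 1 fell in males, Adamts1 (0.34) being one that rose, and none was called in females.

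In the transforming growth factor beta pathway 27 of 28 genes were tested. In Y665F males 10 rose and 3 fell (median 0.09) and in Y665F females 7 rose and 4 fell (median 0.04). With 52.5% and 41.0% of all tested genes called in males and females, these counts are near the background and say nothing particular of the pathway. Id1, a target of the bone morphogenetic protein branch, rose in both sexes, by 1.57 in males (SE 0.29, edgeR adjusted p = 2.17e-05) and by 2.26 in females (SE 0.32, edgeR adjusted p = 4.88e-07). Smad3, which carries the signal of Tgfb1 to the nucleus, fell in Y665F males by 0.43 on the log2 scale (edgeR adjusted p = 4.23e-07). Bambi, a decoy receptor, fell in Y665F females by 0.29. In Y665H 4 rose in males, among them the matricellular gene Cyr61 (1.20, edgeR adjusted p = 0.00209) and Tgfbi (0.36), and 2 in females, among them the receptor Tgfbr2 (0.30, edgeR adjusted p = 0.0202). Tgfbr2 fell in Y665F males by 0.23 and rose in Y665F females by 0.67, and the effects differed by -0.90 (edgeR adjusted p = 7.29e-08).

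Different ligands of the platelet-derived growth factor pathway were called in the Y665F sexes, with Pdgfb in both. Of 6 genes, 4 rose in Y665F males and 2 in Y665F females, and none was called in Y665H. Pdgfc rose in Y665F males by 0.86 (SE 0.14, edgeR adjusted p = 2.85e-06), Pdgfra, the sister receptor of Pdgfrb, by 0.25, and Pdgfb in Y665F females by 0.37. Pdgfa rose in Y665F females from 2.64 to 3.60 CPM to 13.4 to 21.1 CPM (2.35, SE 0.17, edgeR adjusted p = 7.91e-14). It was 0.30 in Y665F males (adjusted p = 0.0721), and the effects differed by -2.05 (edgeR adjusted p = 4.87e-09).

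Around Lrat, 12 of 13 retinoid genes were tested. In Y665F males 3 rose and 5 fell, and in Y665F females 2 rose and 6 fell. Cyp26b1, which clears retinoic acid, fell, with log2 fold changes of -2.07 in Y665F males (SE 0.54, edgeR adjusted p = 0.0016), -3.11 in Y665F females (SE 0.82, edgeR adjusted p = 0.00256) and -2.26 in Y665H males (SE 0.73, edgeR adjusted p = 0.0478). Its libraries spread widely, from 3.98 to 21.6 CPM in WT males and from 1.05 to 13.2 CPM in WT females, and overlapped with the mutants in each case. Aldh1a2, a retinoic acid synthase, rose in Y665F females from 0.236 to 0.434 CPM to 2.12 to 3.08 CPM (3.18, SE 0.26, edgeR adjusted p = 2.96e-12). Aldh1a1, a retinaldehyde dehydrogenase of hepatocytes, was higher in Y665H females by 0.67 (edgeR adjusted p = 0.00146).

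Acta2 was not alone among contractile genes in missing the threshold. Of 10, 4 rose in Y665F males and 4 in Y665F females, 1 in Y665H males and none in Y665H females, and none fell. Among all tested genes 52.5% were called in Y665F males (27.2% as higher) and 41.0% in Y665F females (17.8% as higher). In Y665F males these included S100a6 (0.83) and Tpm1 (0.34), the latter also 0.28 higher in Y665H males. In Y665F females Tpm2, a tropomyosin, rose from 2.05 to 3.07 CPM to 11.8 to 18.0 CPM (2.43, SE 0.29, edgeR adjusted p = 2.60e-08), and Actn1 by 0.20.

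Markers of immune cells and platelets were also higher in Y665F males. The Y665F male library with the highest Kupffer cell, neutrophil and platelet sums, replicate 2, had the lowest Col1a1, Col1a2 and Col3a1. That single library also had the highest share in no annotated gene of the Y665F males, 19.9% beside 13.9% to 16.8% in the others. What set it apart was not tested. In these males all 14 Kupffer cell and macrophage markers rose (median 1.22), with Clec4f at 1.04, Cd5l at 1.33, Csf1r at 1.15 and Lyz2 at 0.93 on the log2 scale. Their summed level was 196 to 292 CPM in WT and 316 to 727 CPM in Y665F males. In Y665F females 4 of the 14 rose and the sums were 362 to 562 and 498 to 654 CPM, in Y665H males 3 rose (293 to 420 CPM), and in Y665H females none was called (205 to 545 CPM). All 6 platelet markers rose in Y665F males (4.59 to 5.69 CPM summed in WT, 6.39 to 11.3 CPM in Y665F) and 2 in Y665F females (5.79 to 8.50 and 7.10 to 14.1 CPM). Of 7 neutrophil markers, 6 rose in Y665F males (0.445 to 0.939 and 1.77 to 9.36 CPM), 1 in Y665F females and 1 in Y665H males.

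Of the other mesenchymal cells, 5 of 12 portal fibroblast and mesothelium markers rose and 1 fell in Y665F males, with sums of 13.4 to 22.2 CPM in WT and 17.0 to 24.5 CPM. In Y665F females 1 of these 12 rose (median 0.46, beside 0.09 in Y665F males), with sums of 14.9 to 21.7 CPM in WT and 20.4 to 26.3 CPM in Y665F. In Y665H females 1 fell (12.7 to 23.3 CPM), and in Y665H males none was called (13.2 to 18.3 CPM). None of 8 smooth muscle markers was called in any mutant against WT of either sex, with sums of 18.4 to 34.0 CPM in WT and 21.4 to 29.5 CPM in Y665F males. Of 10 endothelial markers 1 rose and 1 fell in Y665F males, 3 rose in Y665F females, 1 fell in Y665H males and none was called in Y665H females. The endothelial sums were 513 to 559 CPM in WT, 407 to 572 CPM in Y665F and 382 to 503 CPM in Y665H males. The Y665H males thus lay wholly below the WT males (median log2 fold change -0.33). In females the sums overlapped, at 368 to 591 CPM in WT, 360 to 772 CPM in Y665F and 306 to 636 CPM in Y665H. Of 6 cholangiocyte markers 2 rose and 2 fell in Y665F males, 1 fell in Y665F females and 1 rose in Y665H males. Of 9 acute phase genes 7 rose in Y665F males, 2 in Y665F females, 6 in Y665H males and none in Y665H females. Their sums were 6479 to 6989 CPM in WT males, 9969 to 19662 CPM in Y665F males and 7188 to 14738 CPM in Y665H males. In females they were 8370 to 11325 CPM in WT, 12840 to 17795 CPM in Y665F, without overlap, and 7557 to 11723 CPM in Y665H. No marker of the Kupffer cell or stellate cell lists was at 0 counts over a group. The part of these cells in the collagen values was not tested.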

How the data were processed

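Total RNA of whole liver was depleted of ribosomal RNA and sequenced paired-end with a NovaSeq, per the labels' protocols. The authors deposited 1 file of raw read counts per gene symbol for each of 37 mice. The submitters' processing notes name build mm10 and the tools FastQC 0.11.9, Trimmomatic 0.36, STAR, SAMtools 1.9, Picard 2.9.2 and HTSeq 0.9.1; the annotation and the strand setting are not given in the sources used here. The 5 rows that name no gene (32.4% to 49.9% of items) entered neither library sizes nor tests.

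Counts were tested with edgeR 4.0.16 (R 4.3.3) by glmQLFit and glmQLFTest, with trimmed-mean (TMM) scaling and a mean for each of the 6 groups, all 37 libraries sharing 1 estimate of spread. The filter filterByExpr (minimum count 10, minimum total 15) kept 15152 genes. P-values were adjusted by Benjamini-Hochberg over these, with a call at 0.05. CPM use the scaled library sizes. Fold changes are log2, and 95% intervals are 1.96 SE to each side. Exon lengths and positions come from GENCODE M21, which holds 95.7% of the symbols.

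Alternatives were DESeq2 1.42.0, limma-voom 3.58.1, DESeq2 size factors, scaling without the 100 most abundant genes, no filter, 1 CPM, a fit of only the groups compared, the replicate number as a block, the share of items in no annotated gene as a covariate, and each library left out in turn. The members and gene lists were chosen with earlier results of these data known. Beside the members, each matrix, pathway and stellate list names its called genes with the highest and the lowest fold change per mutant and sex (mean of at least 1 CPM in a group); each list of another cell type names up to 4 of its most abundant genes; genes most like Col1a1, Lrat and Timp1 are the 5 with the highest Pearson r of log2 CPM (prior count 2) centred on the group. A gene that this rule names is not reported here. Other values of a named gene, and of Col5a3 by library range, were added after they were seen. The labels name 1 mouse per library but no litter or cage, so p-values measure the spread between these mice. The analysis was tested on simulated counts.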

Additional observations from a re-analysis of the deposited data

Results flagged for a closer look

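In the 60 groups of a member's values that were examined for a library standing apart, 1 was found. By chance about 1 in 20 groups is expected to hold one, for the members and for the marker sums alike. Acta2 had 5.78 CPM in WT male replicate 3, with the other WT males at 1.35 to 2.59 CPM. The same library was highest among WT males in Col1a1, Col1a2, Col3a1, Des and Lox. Of 48 groups of summed marker levels, examined after these sums had been seen, 6 held a library that stood apart. Y665F male replicate 2 had 19662 CPM of acute phase genes (9969 to 11684 CPM in the others) and 9.36 CPM of neutrophil genes (1.77 to 5.36 CPM). Without that library the log2 fold changes in Y665F males were 1.33 for Col1a1, 1.06 for Col1a2 and 1.26 for Col3a1, and 7 members were called. Y665F male replicate 1 had 29.5 CPM of smooth muscle genes (21.4 to 25.4 CPM in the others), and replicate 6 had 407 CPM of endothelial genes (514 to 572 CPM). Y665F female replicate 1 had 772 CPM of endothelial genes (360 to 504 CPM in the others), and replicate 6 had 654 CPM of Kupffer cell and macrophage genes (498 to 553 CPM).

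The effect of Y665F against WT differed between males and females by a test of the interaction for 4 members. On the log2 scale the effect was more positive in males by 0.97 for Col3a1, 0.83 for Col1a2, 0.53 for Lrat and 0.45 for Des. The 2 collagens rose in males, Lrat fell in females, and Des rose in males. Depth did not overlap between the sexes and cannot be told apart from sex. The share of items in no annotated gene overlapped over all groups, at 11.9% to 19.9% in males and 7.21% to 15.8% in females. Within WT it did not, at 17.3% to 19.8% in males and 9.59% to 14.7% in females, so share and sex cannot be told apart there. With the share as a covariate none of the 4 was called, with 0.64 for Col3a1, 0.63 for Col1a2, 0.55 for Lrat and 0.35 for Des. The call of Lrat was lost in 6 of 9 alternative fits. Outside the members, the effect differed between the sexes by -2.65 for Col5a3, 2.07 for Loxl4, -2.05 for Pdgfa and -0.90 for Tgfbr2.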

How the results depend on the processing

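Col1a1, Col1a2, Col3a1, Pdgfrb and Tgfb1 in Y665F males kept their direction and call in all 9 alternative fits and in all 15 that left out a library, and Lrat and Tgfb1 in Y665F females did so in all 9 and 12. The number of members called moved by over 1.5 times in 3 cases. With the share in no annotated gene as a covariate it was 0 for WT males against females, where 4379 of 15152 genes were called (7537 in the main fit). It was also 0 for the difference of the Y665F effect between the sexes, where 2602 were called (4190 in the main fit). With only the groups compared it was 6 for Y665F against WT females, where 5652 of 13773 genes were called. The cause was not tested. With single libraries left out, the members called were 5 to 7 for Y665F against WT males and 2 to 3 for females, 4 to 6 and 2 to 3 for Y665H against Y665F in males and females, 3 to 5 for WT males against females and 3 to 5 for the Y665F sex difference.

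The same replicate numbers do not pair the libraries: deviations of libraries with the same number correlated with r of -0.20 to 0.16 in 14 pairs of males (over 0.1 in 5) and -0.28 to 0.23 in 18 pairs of females (over 0.1 in 3). With the replicate block the members called were 5 and 2 for Y665F against WT in males and females, 4 and 2 for Y665H against Y665F in males and females, 3 for the Y665F sex difference and 0 for Y665H against WT in either sex and for the Y665H sex difference. Of 15152 genes that fit called 7023 and 5831, 5294 and 8339, and 3418 in the same order. For Y665H against WT it called 664 in males and 785 in females, and 414 for the Y665H sex difference. The calls lost under the block were those of Des (adjusted p = 0.0516) and Lox (0.0631) for Y665F against WT males, of Des and Pdgfrb for Y665H against Y665F males, of Des for these females and of Lrat for the Y665F sex difference. No paired analysis was possible because the numbers are nested in sex for WT males against females. With the replicate block Acta2 was 0.11 for Y665F against WT males and 0.0017 for the Y665F sex difference, and Tgfb1 was -0.0010 for Y665H against WT females, each with the opposite sign.

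The other values that changed sign were small and not called. Acta2 in Y665F males was 0.21 by limma-voom, 0.0053 without the filter and 0.0024 with only the groups compared, and its sex difference was 0.096 by limma-voom. Tgfb1 in Y665H females was -0.0047 without the filter, -0.025 with the covariate and -0.0086 with only the groups compared. Between WT males and females Lrat was -0.012 without the filter and -0.033 with the covariate, and Pdgfrb was 0.0050 at 1 CPM, 0.11 with the covariate and 0.00081 with only the groups compared. Des in Y665H males was -0.0086 at 1 CPM and -0.071 with the covariate. With the covariate Lox was -0.13 in Y665H males, Des -0.0031 in Y665H females and Col3a1 -0.10 for Y665H against Y665F females.

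Leaving out single libraries, log2 fold changes ranged across 0 for Acta2 from -0.15 to 0.46 in Y665F males, from -0.50 to 0.11 in Y665H males and from -0.31 to 0.34 for the sex difference. In Y665H against WT they ranged for Des from -0.051 to 0.054 in males and -0.035 to 0.11 in females, for Lox from -0.011 to 0.19 and -0.15 to 0.14, for Tgfb1 in females from -0.088 to 0.092 and for Pdgfrb in females from -0.035 to 0.14. Between WT males and females they ranged for Pdgfrb from -0.053 to 0.0027 and for Lrat from -0.066 to 0.057. For Y665H against Y665F females they ranged for Col1a1 from -0.36 to 0.065 and for Col1a2 from -0.14 to 0.11. Depth limits Timp1 and Lox. With a prior count of 0.5 in place of 2, the balance of all 8 members against Lrat and Des was 0.76, 0.41, 0.59 and -0.08 in Y665F males, Y665H males, Y665F females and Y665H females.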
